A study of Homo sapiens with 60 samples.

Results

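MT-RNR1 and MT-RNR2 are the genes of the 12S and 16S ribosomal RNAs of the mitochondrion, and they are described here in SW1783, an established human astrocytoma cell line, across 20 treatment groups. They were chosen by name, with their levels, their ratio to each other and their ratio to the mitochondrial mRNAs already known to vary in these data. They are 2 of 60675 genes in the deposited table and 2 of 37 genes of the mitochondrial genome in it, beside 13 mRNAs and 22 tRNAs. Because these values led to the choice, levels, fold changes and ratios of mitochondrial RNAs are given as a description without a test. Tests are given only for nuclear genes.

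All groups were SW1783 cells sequenced 24 h after treatment, with 3 libraries per group and 60 libraries in all. The vehicle was 0.1% DMSO per the sample labels and 2% per the series design text. Wortmannin, an inhibitor of phosphoinositide 3-kinase used as the positive control, was given at 10 µM. The other 18 groups received a hot water extract at a low, a medium and a high dose. Fresh ginger (Zingiberis Rhizoma Recens), dried ginger (Zingiberis Rhizoma), Pinellia and jujube were used at 20, 100 and 500 µg/mL. Scutellaria was used at 16.4, 82 and 410 µg/mL, and Coptis at 0.8, 4 and 20 µg/mL. High doses under 500 µg/mL were set, per the labels, at the concentration that inhibits 20%. A DMSO content of the treated groups was not used here, so solvent and treatment cannot be told apart.

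Mitochondrial ribosomes translate the few proteins that the mitochondrial genome encodes, all of them subunits of the respiratory chain and ATP synthase. The 12S rRNA is the RNA of the small subunit of this ribosome and the 16S rRNA that of the large subunit. Both lie on the heavy-strand transcript ahead of nearly all mRNAs, are bordered by tRNAs, and are cut out of the long precursor when the tRNAs are excised. Their copies in the cell carry only short A tails, so their share in an mRNA library also depends on how RNA was selected. The labels name a directional mRNA library kit but not the selection step, and the amount of RNA per cell was not measured. A change in rRNA and a change in the share that entered the libraries can therefore not be told apart.

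In GRCh38, MT-RNR1 spans positions 648 to 1601 of chromosome M (954 bases, plus strand) and MT-RNR2 positions 1671 to 3229 (1559 bases, plus strand), both as exons of noncoding genes in GENCODE v29. MT-TV fills the gap between them, and MT-TL1 follows MT-RNR2 before MT-ND1. The 2 junctions are shown because each rRNA is released there, with the last 30 bases of the rRNA in capitals and the whole tRNA after it in lower case, 5′ to 3′ on the plus strand. The first lies at chrM:1572-1670 and the second at chrM:3200-3304.
MT-RNR1 and MT-TV: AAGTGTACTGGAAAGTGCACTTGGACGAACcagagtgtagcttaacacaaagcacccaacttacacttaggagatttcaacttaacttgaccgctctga
MT-RNR2 and MT-TL1: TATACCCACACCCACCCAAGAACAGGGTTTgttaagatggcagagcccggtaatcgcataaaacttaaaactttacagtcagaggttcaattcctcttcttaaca
The A-richest window of 20 bases in each rRNA is shown in capitals within its 60-base surroundings, since runs of A inside an RNA can be captured by oligo(dT). The stretches lie at chrM:988-1047 and chrM:2430-2489.
MT-RNR1: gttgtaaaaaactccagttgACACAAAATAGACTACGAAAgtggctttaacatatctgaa
MT-RNR2: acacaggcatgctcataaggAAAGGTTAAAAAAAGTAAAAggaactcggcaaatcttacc
These windows hold 12 A in MT-RNR1 and 14 A in MT-RNR2, against 9 to 15 in the 13 mitochondrial mRNAs. The longest run of A is 6 in MT-RNR1 and 7 in MT-RNR2, against 3 to 8 in the mRNAs. Neither rRNA stands outside the range of the mRNAs in these features. MT-RNR1 is 33% A and MT-RNR2 35.1% A, against 19.6% to 38.6% in the mRNAs. Only MT-ATP8, which also holds the window of 15 A, is richer in A than the rRNAs, and MT-ND2 is the next mRNA at 31.3%. Whether these stretches were captured was not tested.

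Library totals were 20.2 to 32.8 M counts, with a median of 25.4 M. MT-RNR1 had 12436 to 535555 counts per library and MT-RNR2 172991 to 2091334, so both were counted deeply in every library. The tRNAs were practically absent from the libraries. Their 22 genes summed to at most 8 counts, and MT-TF, MT-TV and MT-TL1 reached 1, 1 and 0 counts in the highest library. The line carried VIM at 3690 to 8610 CPM (read counts scaled to a common library size), CD44 at 2140 to 3000 CPM and SOX9 at 58.2 to 93.1 CPM. Among the other astrocytic markers, SLC1A3 was at 3.69 to 48.8 CPM (median 31.1) and NES at 1.66 to 11.7 CPM. GFAP, S100B, AQP4 and ALDH1L1 stayed at or under 0.339 CPM, and SLC1A2 at or under 0.763 CPM. Of 10 markers of other cells, CD68 was at 112 to 243 CPM, KRT18 at 68.2 to 244 CPM, PTPRC, a marker of blood cells, at 5.98 to 16.6 CPM and MBP at 5.4 to 10.5 CPM, and the other 6 stayed at or under 1.42 CPM. CPM values use TMM scaling factors, edgeR's correction for library composition, and are relative to each library.

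In vehicle cells the large-subunit rRNA was far more abundant in the libraries than the small-subunit rRNA. MT-RNR1 had 672, 686 and 694 CPM in the 3 vehicle libraries, a mean of 684 ± 11.1 (SD, n = 3). MT-RNR2 had 8715, 8341 and 9148 CPM, a mean of 8735 ± 404 (SD, n = 3). Per kilobase of gene length the level of MT-RNR2 was 5603 CPM/kb and that of MT-RNR1 717 CPM/kb, a ratio of 7.82 ± 0.331 (SD, n = 3). The 13 mRNAs lay between 432 CPM/kb for MT-ND6, the only mRNA of the light strand, and 7351 CPM/kb for MT-CO1, which encodes a catalytic subunit of cytochrome c oxidase. On this scale MT-RNR1 was thus below 12 of the mRNAs, and 0.954% of all counts came from the 2 rRNAs against 4.21% from the 13 mRNAs.

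Coptis extract went with the highest level of both rRNAs at all 3 doses, and the medium dose with the highest of all. MT-RNR1 had 3003, 2952 and 2670 CPM at the low dose, 20056, 19222 and 18190 CPM at the medium dose, and 8310, 8408 and 7989 CPM at the high dose. MT-RNR2 had 20712, 19999 and 18301 CPM at the low dose, 78317, 75804 and 69916 CPM at the medium dose, and 30965, 31150 and 28771 CPM at the high dose. Every one of these 9 libraries lay above each of the 51 others, where MT-RNR1 was 501 to 952 CPM and MT-RNR2 6680 to 11247 CPM. No 2 doses of Coptis overlapped for either rRNA. The share of all genes that separate the 9 libraries from the 51 others in this way was not counted.

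Against vehicle, MT-RNR1 was 4.2-fold higher at the low dose, 28.0-fold at the medium dose and 12-fold at the high dose of Coptis. These are log2 fold changes of 2.07, 4.81 and 3.59, each with an SE of 0.05. MT-RNR2 was 2.25-fold, 8.55-fold and 3.47-fold higher, or 1.17, 3.10 and 1.79 on the log2 scale, each with an SE of 0.05. The level of both rRNAs was thus highest at the medium dose, lower at the high dose and lowest of the 3 at the low dose. From low to high dose the log2 difference was 1.52 for MT-RNR1 and 0.62 for MT-RNR2 (SE 0.05 each), without overlap, as for 37.4% of all genes in this direction. Among all tested genes, 9.12% had higher groups without overlap at the low dose, 25.7% at the medium dose and 37.8% at the high dose of Coptis. Under library totals without TMM factors the high-dose values were 3.27 for MT-RNR1 and 1.48 for MT-RNR2. The median of all tested genes moved by the same step, from -0.03 to -0.35.

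**Figure D1:**
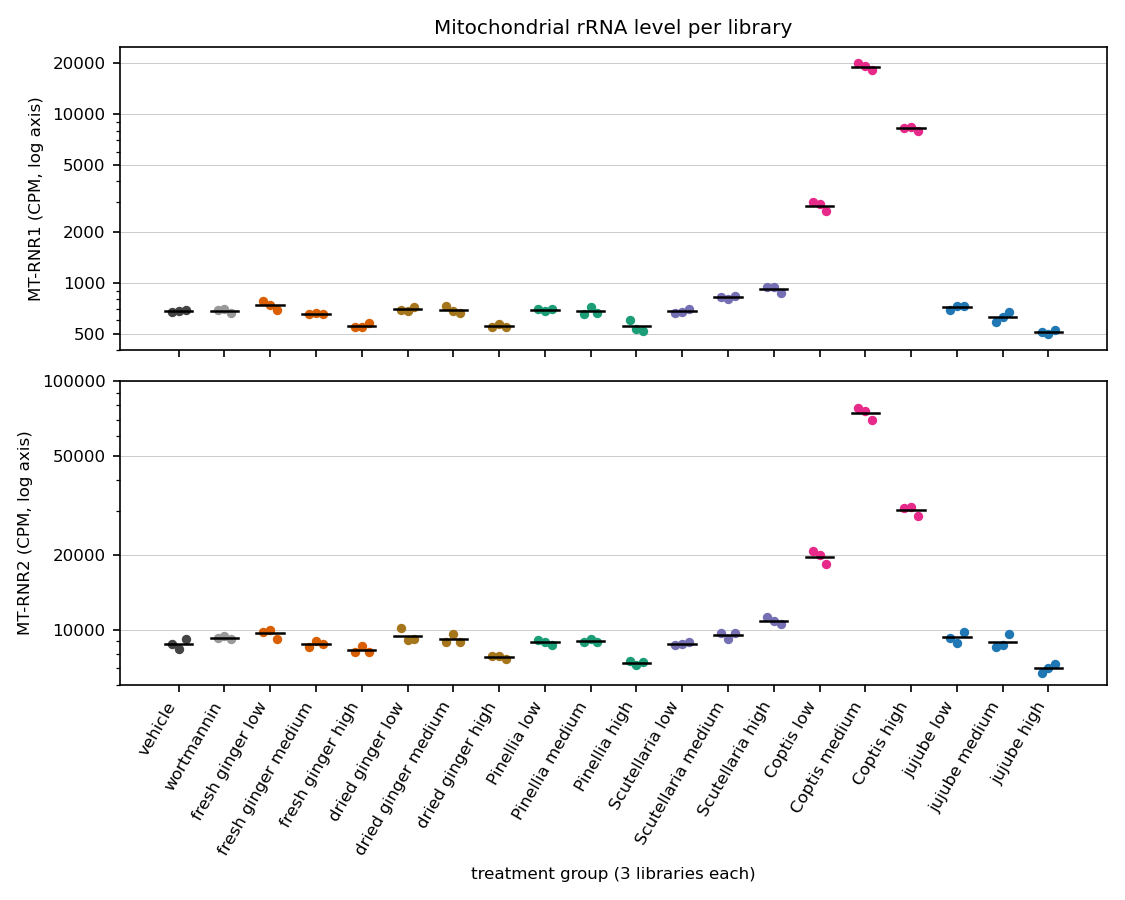
CPM of MT-RNR1 (top) and MT-RNR2 (bottom) on log axes in 20 groups, where each point is a library and each line the mean of 3. The 9 Coptis libraries sit above the other 51 in both panels, and the medium dose sits highest at means of 19156 and 74679 CPM.

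As a share of all counts, the 2 rRNAs together made up 0.954% ± 0.0389 in the vehicle and 2.26% ± 0.133, 8.63% ± 0.437 and 3.13% ± 0.0865 at the low, medium and high dose of Coptis (SD, n = 3 each). In the other 16 treated groups the mean share was between 0.775% with high-dose jujube and 1.21% with high-dose Scutellaria. The share of the 13 mRNAs was 4.21% in the vehicle and 3.73%, 2.45% and 3.20% at the 3 Coptis doses. More counts came from the rRNAs than from the mRNAs in all 3 libraries of the medium dose of Coptis. At the high dose the shares were close, with 3.2%, 3.16% and 3.04% from the rRNAs against 3.6%, 3.14% and 2.86% from the mRNAs.

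The difference from the vehicle was larger for the 12S than for the 16S rRNA. The ratio of MT-RNR2 to MT-RNR1 per kilobase was 7.94, 7.44 and 8.07 in the vehicle libraries. It was 4.22, 4.15 and 4.19 at the low dose, 2.39, 2.41 and 2.35 at the medium dose, and 2.28, 2.27 and 2.20 at the high dose of Coptis. The 9 Coptis libraries lay below all 51 others, which ranged from 6.98 to 9.61. The ratio did not follow the level. It was lowest at the high dose, while both levels were highest at the medium dose. On the log2 scale MT-RNR1 gained on MT-RNR2 by 0.90 at the low dose, 1.71 at the medium dose and 1.80 at the high dose, each with an SE of 0.04.

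**Figure D2:**
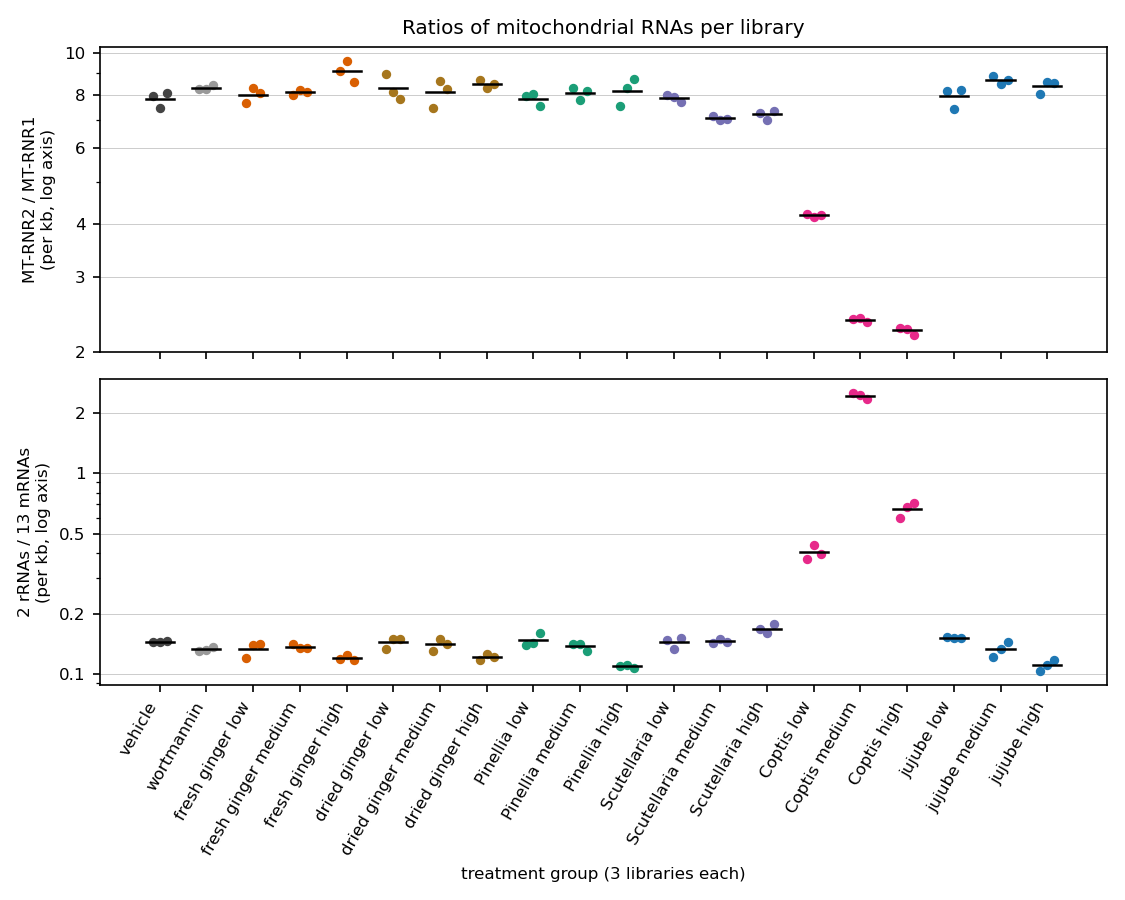
Ratio of MT-RNR2 to MT-RNR1 (top) and of the 2 rRNAs to the 13 mRNAs (bottom), both per kilobase and on log axes, with a point for each library and a line for the mean of 3. Coptis libraries sit at 2.20 to 4.22 in the top panel and at 0.374 to 2.5 in the bottom panel, outside the ranges of the other libraries of 6.98 to 9.61 and 0.104 to 0.177.

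The mitochondrial mRNAs did not share the high level of the rRNAs. The ratio of the summed rRNA to the summed mRNA level per kilobase was 0.144, 0.145 and 0.147 in the vehicle libraries. It was 0.374, 0.441 and 0.397 at the low dose, 2.5, 2.45 and 2.35 at the medium dose, and 0.599, 0.680 and 0.710 at the high dose of Coptis. No Coptis dose overlapped another or any other group, and the 51 other libraries ranged from 0.104 to 0.177. The log2 differences from the vehicle were 1.47 (SE 0.07), 4.07 (SE 0.03) and 2.19 (SE 0.07).

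At the medium dose of Coptis 12 of the 13 mRNAs were below the vehicle, with a median log2 fold change of -0.62. MT-CO2, a subunit of cytochrome c oxidase, was lowest at -1.02 (SE 0.08), from 6868 to 3376 CPM/kb. MT-ND4 followed at -0.92 (SE 0.10), and MT-ND6, the light-strand mRNA, was at 0.07 (SE 0.15). MT-ND1, which encodes a subunit of complex I and directly follows MT-RNR2 and MT-TL1, was at -0.21 (SE 0.11). Its neighbour MT-RNR2 was at 3.10, so the step between adjacent genes was steepest there.

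At the low dose the values were lower with distance along the first genes of the heavy strand. MT-RNR1 was at 2.07, MT-RNR2 at 1.17, MT-ND1 at 0.61 (SE 0.11) and MT-ND2 at 0.58 (SE 0.10), while MT-CO1 was at -0.16 (SE 0.07) and MT-CO2 at -0.45 (SE 0.08). Of the 13 mRNAs 3 were above and 10 below the vehicle, with a median of -0.27. The level of MT-ND1 was 2618 ± 317 CPM/kb in the vehicle and 3997 ± 505 CPM/kb at the low dose, and that of MT-ND2 2517 ± 135 and 3755 ± 490 CPM/kb (SD, n = 3 each). At the high dose the median of the mRNAs was 0.00, from -0.61 for MT-ND5 to 0.47 for MT-ND3. With library totals this median was -0.32, and 11 of 13 were below the vehicle. Counts of MT-ATP8 and MT-ATP6, and of MT-ND4L and MT-ND4, share reads because these genes overlap, so their single values are uncertain.

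**Figure D3:**
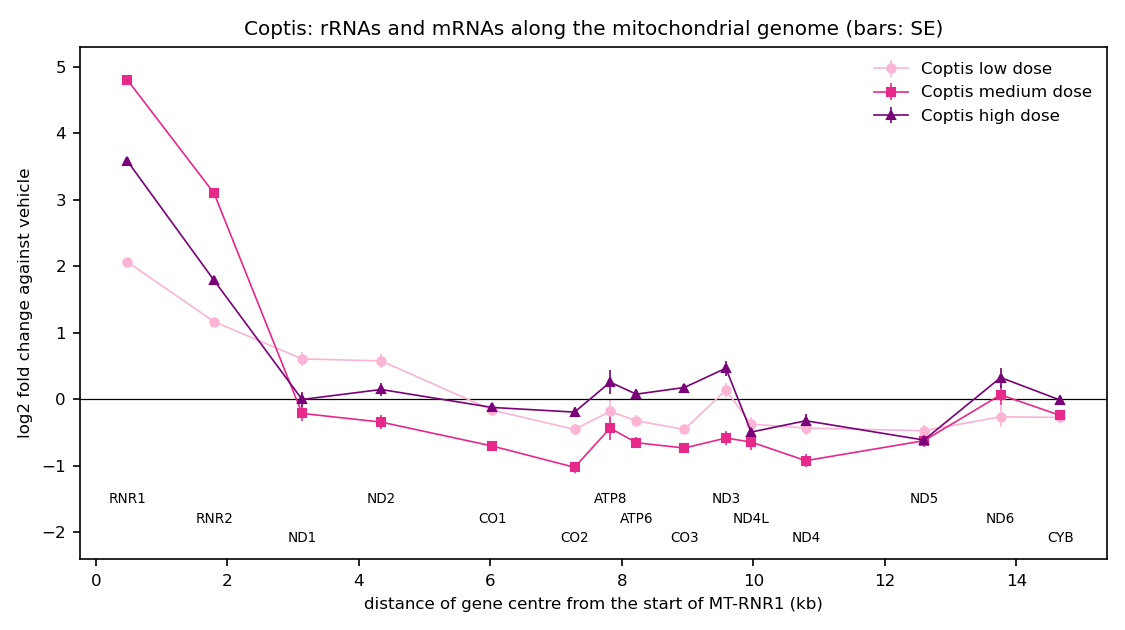
Log2 fold change against vehicle (vertical axis, bars are SE) of the 2 rRNAs and 13 mRNAs by the distance of the gene centre from the start of MT-RNR1 in kilobases, for 3 doses of Coptis. The rRNAs stand at 1.17 to 4.81, and the mRNAs lie between -1.02 and 0.61.

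Summed levels of other RNAs without long A tails were read beside the rRNAs. The summed level of 18 such nuclear RNAs was 11.7 ± 6.06 CPM in the vehicle and 9.54 ± 4.54, 6.61 ± 1.39 and 10.8 ± 3.84 CPM at the low, medium and high dose of Coptis (SD, n = 3 each). The summed level of 35 replication-dependent histone mRNAs, which lack A tails, was 17.9, 17.4, 12 and 8.94 CPM in the same groups. The mean of neither sum was higher with Coptis than with vehicle. The first sum was small and ranged from 6.51 to 18.3 CPM within the vehicle. Over the 51 libraries without Coptis it ranged from 4.16 to 82.3 CPM, so it varied widely without Coptis as well. The histone sum was also low with high-dose Scutellaria, at 8.54 CPM. Whether the selection of RNA differed between libraries was not tested. TMM factors were 0.998 to 1.008 at the low, 0.917 to 0.927 at the medium and 0.799 to 0.827 at the high dose of Coptis, against 1.011 to 1.017 in the vehicle, and their part in the result is given by the values with library totals. Nuclear copies of MT-RNR2, the MTRNR2L genes, summed to 0.414 to 0.778 CPM across the means of all 20 groups. The first number of the library codes in the labels was shared by Coptis and jujube and differed from that of the vehicle, and what it stands for is not stated. In the 9 jujube libraries MT-RNR1 was 501 to 731 CPM. Number and treatment cannot be told apart in the contrasts with the vehicle.

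Scutellaria also had a higher level of both rRNAs at its high dose, with values that were small beside those of Coptis. MT-RNR1 had 666, 674 and 704 CPM at the low dose, 827, 799 and 840 CPM at the medium dose, and 946, 952 and 875 CPM at the high dose. The medium and high doses lay above all vehicle libraries and did not overlap each other. The log2 fold changes against vehicle were 0.27 and 0.43, each with an SE of 0.05. MT-RNR2 had 11247, 10864 and 10485 CPM at the high dose, above the vehicle libraries, with a log2 fold change of 0.31 (SE 0.05). Its medium dose, at 9646, 9131 and 9645 CPM, overlapped the vehicle. Higher groups without overlap were found for 12.8% of all genes at the medium dose and 31.7% at the high dose. Between its own low and high dose the log2 difference was 0.44 for MT-RNR1 and 0.31 for MT-RNR2, without overlap, as for 30.6% of all genes in this direction.

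MT-RNR1 also gained on MT-RNR2 with Scutellaria, by 0.15 at the medium and 0.12 at the high dose on the log2 scale, each with an SE of 0.04. The rRNA to mRNA ratio per kilobase was 0.167, 0.161 and 0.177 at the high dose, above the vehicle libraries, and its log2 difference was 0.21 (SE 0.04). At the medium dose it was 0.143, 0.150 and 0.145 and overlapped the vehicle. The 13 mRNAs had a median log2 fold change of 0.19 at both doses. Shifts of MT-RNR1 to MT-RNR2 of like size went the other way, without overlap with the vehicle, in other groups. They were -0.22 (SE 0.06) with high-dose fresh ginger and -0.15 (SE 0.04) with medium-dose jujube. High-dose dried ginger was at -0.12 and wortmannin at -0.09 (SE 0.04 each). All remaining groups overlapped the vehicle in this ratio, apart from Coptis.

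At the high dose of the other 4 extracts both rRNAs were lower than or close to the vehicle. MT-RNR1 had 509, 501 and 525 CPM with jujube, 604, 533 and 522 CPM with Pinellia, 549, 548 and 581 CPM with fresh ginger, and 550, 575 and 548 CPM with dried ginger. All 12 libraries lay below the 3 of the vehicle. The log2 fold changes were -0.42, -0.31, -0.29 and -0.30 in this order, each with an SE of 0.05. MT-RNR2 had 6680, 7001 and 7297 CPM with jujube, 7460, 7208 and 7410 CPM with Pinellia, and 7803, 7792 and 7596 CPM with dried ginger, all below the vehicle. With fresh ginger it had 8153, 8605 and 8145 CPM and overlapped the vehicle. The log2 fold changes of MT-RNR2 were -0.32 with jujube, -0.25 with Pinellia, -0.18 with dried ginger and -0.07 with fresh ginger, each with an SE of 0.05. The share of all genes with lower groups without overlap was 17.9% for jujube, 14.6% for Pinellia, 17% for fresh ginger and 15.7% for dried ginger.

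Against the vehicle, the median of the mRNAs was not lower with these 4 extracts. Of 13 mRNAs, 11 were above the vehicle with high-dose Pinellia (median log2 0.22), 13 with fresh ginger (0.23), 11 with jujube (0.05) and 10 with dried ginger (0.07). The rRNA to mRNA ratio was lower than in every vehicle library with all 4 extracts, by log2 differences of -0.41 (SE 0.02) with Pinellia, -0.39 (SE 0.05) with jujube, -0.28 (SE 0.02) with fresh ginger and -0.25 (SE 0.03) with dried ginger. These comparisons share the vehicle libraries, whose mRNA share was at the low end of the groups without Coptis. Against their own low dose, which shares no library with the vehicle, the high doses differed in MT-RNR1 by -0.49 with jujube, -0.40 with fresh ginger, -0.33 with Pinellia and -0.32 with dried ginger (log2, SE 0.05 each). For MT-RNR2 the same differences were -0.41, -0.22, -0.27 and -0.29. For both rRNAs, in all 8 cases, the high dose lay below the low dose without overlap, as for 16.7% of all genes with jujube, 17.7% with fresh ginger, 13% with Pinellia and 14.1% with dried ginger. In the same contrast the median of the mRNAs was -0.11 with fresh ginger (9 of 13 below), -0.03 with dried ginger (12 of 13 below), 0.14 with Pinellia (2 of 13 below) and 0.03 with jujube (4 of 13 below). The rRNA to mRNA ratio differed from the low dose by -0.45 (SE 0.05) with jujube, -0.43 (SE 0.06) with Pinellia and -0.24 (SE 0.06) with dried ginger, without overlap. With fresh ginger it differed by -0.15 (SE 0.08), and the libraries overlapped.

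**Figure D4:**
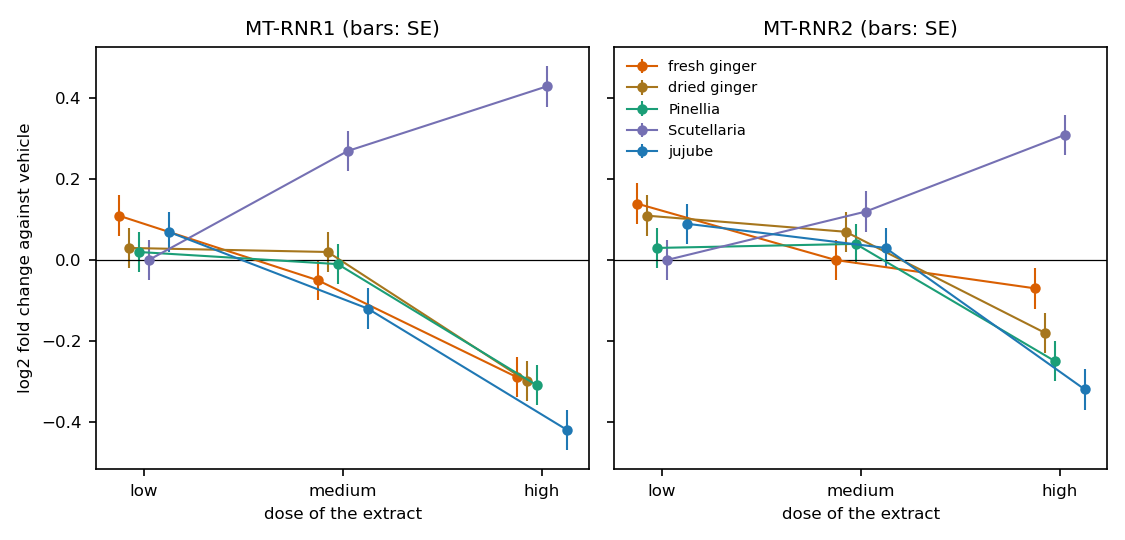
Log2 fold change of MT-RNR1 (left) and MT-RNR2 (right) against vehicle at the low, medium and high dose of the 5 extracts other than Coptis, with bars for the SE. Scutellaria reaches 0.43 and 0.31 at its high dose, and the other 4 extracts lie between -0.42 and -0.07 at theirs.

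Wortmannin left both rRNAs near the vehicle. MT-RNR1 had 688, 697 and 663 CPM and MT-RNR2 9260, 9396 and 9120 CPM, and both overlapped the vehicle libraries, with log2 fold changes of -0.00 and 0.08 (SE 0.05 each). The rRNA to mRNA ratio was lower, at 0.131, 0.132 and 0.137, since 12 of 13 mRNAs were above the vehicle with a median of 0.17. This was not particular to wortmannin. Low-dose fresh ginger had 13 of 13 mRNAs above the vehicle (median 0.29), low-dose dried ginger 13 (0.13) and medium-dose jujube 12 (0.18). Medians were smaller with low-dose Pinellia (0.01), jujube (0.03) and Scutellaria (0.04). The vehicle, at 4.21%, shared the lowest mean mRNA share of the 17 groups without Coptis with low-dose Pinellia. Low and medium doses of both gingers, Pinellia and jujube had group means of 630 to 738 CPM for MT-RNR1 and 8743 to 9651 CPM for MT-RNR2. Among them low-dose fresh ginger lay above the vehicle without overlap for both rRNAs, with 783, 736 and 696 CPM for MT-RNR1 and log2 fold changes of 0.11 and 0.14, in a direction shared by 12.8% of all genes. Its medium dose, at 652, 667 and 659 CPM, lay below the vehicle for MT-RNR1 at a log2 fold change of -0.05, as did 9.24% of all genes.

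When the 20 groups were ordered by MT-RNR1, the 3 Coptis doses stood first, followed by high-dose and medium-dose Scutellaria. Each of these 5 did not overlap the next group down. Of the 19 pairs of neighbours in the order, 13 overlapped. The middle of the order, from low-dose fresh ginger at 738 CPM to medium-dose jujube at 630 CPM, therefore held no step between neighbours that exceeded the spread. The next step, to high-dose fresh ginger at 559 CPM, was without overlap. For MT-RNR2 also 13 of 19 neighbours overlapped. For the ratio of MT-RNR2 to MT-RNR1 and the ratio of rRNA to mRNA 15 of 19 overlapped.

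Across the 20 group means of log2 CPM the 2 rRNAs correlated at a Pearson r of 0.991. Among 12708 nuclear genes, the 5 most like MT-RNR1 included CDC42BPB (r = 0.920), AXL (0.915), MYOF (0.912) and TOX2 (0.904). The 5 most like MT-RNR2 included KCTD20 (0.910), TOX2 (0.891), CDC42BPB (0.888) and MYOF (0.876). The range of these genes was far smaller. TOX2 was at 33 CPM in the vehicle and 63.9 CPM at the medium dose of Coptis, a log2 difference of 0.95, and KCTD20 differed by 0.21. The 20 points share the 3 far-lying Coptis groups, which weigh most in each r.

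Nuclear genes of 7 lists were tested in the same libraries. Of these, 30 and 52 encode proteins of the small and the large mitochondrial ribosomal subunit, and 10 are nuclear regulators. The other lists hold genes of mitochondrial transcription and genome upkeep, rRNA modification, RNA processing and decay, and ribosome assembly. At the low dose of Coptis 0 of 158 genes of 7 lists were called by edgeR's quasi-likelihood test at an adjusted p under 0.05, against 0.683% of all tested genes (0.433% higher and 0.25% lower). At an unadjusted p under 0.05 there were 11 of 158, against 1851 of 17569 tested genes, and DESeq2 also called 0. Without the third vehicle library edgeR called 1. The count of 0 is near the share of all tested genes and does not set these lists apart. MT-RNR1 was 4.2-fold and MT-RNR2 2.25-fold above the vehicle at this dose, and a link to the nuclear genes was not tested.

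At the medium dose of Coptis 27 of the 158 genes were higher and 22 lower, 31% in all against 41.2% of all tested genes (21% higher and 20.2% lower). MTERF1, which binds inside MT-TL1 next to the end of MT-RNR2 and is described as a terminator of transcription, fell from 15.3 ± 0.968 to 12.5 ± 0.946 CPM, or -0.29 on the log2 scale (SE 0.07, adjusted p = 8.1e-04, n = 3 each by edgeR). MRM2, a methyltransferase that acts on the 16S rRNA, fell by 0.33 (SE 0.05, adjusted p = 5.1e-08 by edgeR). TEFM, the mitochondrial transcription elongation factor, fell by 0.25 (SE 0.09, adjusted p = 0.021 by edgeR). POLRMT, the mitochondrial RNA polymerase, was called higher at 0.26 (SE 0.06, adjusted p = 1.7e-04 by edgeR), but with library totals it was at 0.12 with an adjusted p of 0.09. TFAM, which packages mitochondrial DNA and activates its promoters, was at -0.09 (SE 0.04, adjusted p = 0.057 by edgeR), and with library totals at -0.23 with an adjusted p of 9.1e-07. With library totals 5 of the 158 genes were higher and 81 lower, and the median of all tested genes was -0.13.

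At the high dose of Coptis 124 of the 158 genes were called, 78.5% against 75.2% of all tested genes (37.2% higher and 37.9% lower). POLRMT rose from 35.5 ± 2.54 to 80.5 ± 0.969 CPM, or 1.18 on the log2 scale (SE 0.05, adjusted p = 2.1e-26, n = 3 each by edgeR). LONP1, a protease of the mitochondrial matrix, rose by 1.14, and SUPV3L1, the helicase of the mitochondrial RNA degradosome, by 1.71. TFAM fell by 0.40 (SE 0.04), TEFM by 0.83 (SE 0.10) and MTERF1 by 1.00 (SE 0.08). FASTKD5, needed to process transcripts that no tRNA borders, fell by 2.42, and PRORP, the catalytic subunit of mitochondrial RNase P, which cuts the 5′ end of tRNAs, by 0.68. LRPPRC, which stabilises mitochondrial mRNAs, rose by 0.67. All of these had an adjusted p of 1.6e-10 or less by edgeR, and each stayed called in its direction with library totals.

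By list, genes of mitochondrial transcription and genome upkeep had 7 higher and 7 lower of 18 at the high dose of Coptis. Enzymes that modify rRNA had 5 higher and 6 lower of 12, with TRMT61B at -1.73, MRM2 at -0.74 and METTL15 at -0.80, and METTL17 at 0.77. RNA processing and decay had 7 higher and 11 lower of 21, and ribosome assembly 8 higher and 7 lower of 17. Proteins of the small ribosomal subunit had 16 higher and 8 lower of 30, with a median log2 of 0.15, and those of the large subunit 28 higher and 8 lower of 52, with a median of 0.19. The median of all tested genes was -0.03. MRPS5 was at 0.95, MRPL10 at 0.95 and MRPS30, now counted to the large subunit, at 1.3, while MRPL35 was at -0.80. With library totals the direction of both protein lists turned, to 8 higher and 16 lower for the small and 13 higher and 26 lower for the large subunit. Of 10 nuclear regulators 7 were higher and 1 lower, with PPARGC1A, a coactivator of mitochondrial biogenesis, at 1.46 and the transcription factor MYC at 2.12.

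**Figure D5:**
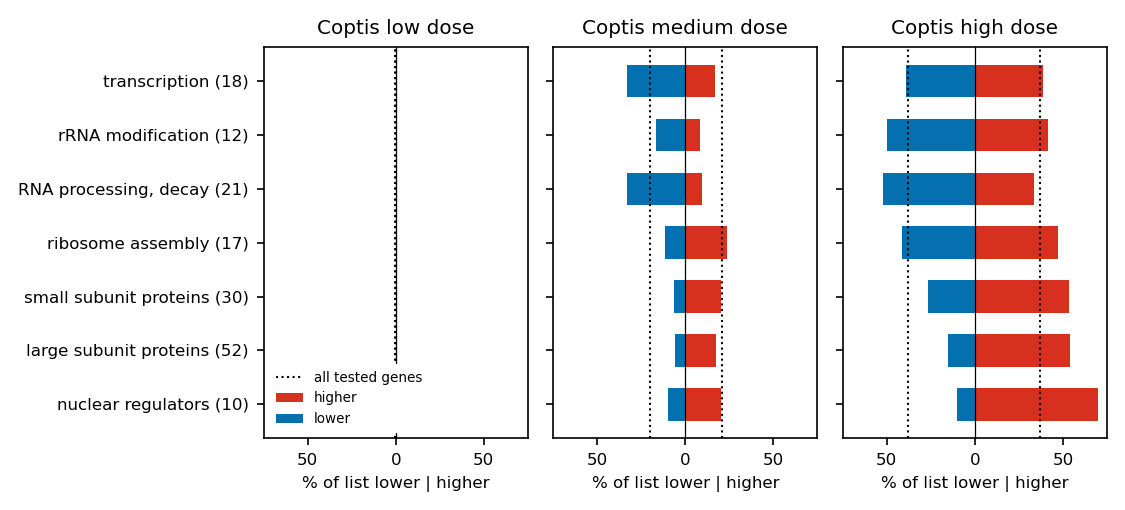
Share of each nuclear gene list called higher (right of 0) or lower (left of 0) against vehicle at an adjusted p under 0.05 for 3 doses of Coptis, with the number of genes per list in brackets. Dotted lines give the share of all tested genes. The low dose has no called gene, and the high dose has 77 higher and 47 lower of 158, which turn to 41 higher and 90 lower with library totals.

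At the high dose of Scutellaria 31 of the 158 nuclear genes were higher and 57 lower, 55.7% against 58.8% of all tested genes (30.3% higher and 28.5% lower). LONP1 rose by 1.13 (SE 0.04, adjusted p = 2.8e-31 by edgeR) and MYC by 2.05 (SE 0.05, adjusted p = 4.5e-38 by edgeR). NSUN4, a methyltransferase of the 12S rRNA, rose by 0.52 (SE 0.05), TFB1M, which dimethylates the 12S rRNA, by 0.55 (SE 0.10) and SUPV3L1 by 0.75 (SE 0.04), with adjusted p of 1.4e-06 or less by edgeR. Among the proteins of the ribosome more were called lower than higher, with 0 higher and 14 lower of 30 in the small and 3 higher and 25 lower of 52 in the large subunit. MRPS14 fell by 0.43 and MRPL47 by 0.35.

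Under wortmannin, where the rRNAs stayed near the vehicle, 8 of the 158 genes were higher and 79 lower, 55.1% against 36.5% of all tested genes (17.3% higher and 19.2% lower). Of the ribosomal proteins 0 were higher, and 18 of 30 of the small and 34 of 52 of the large subunit were lower, each list with a median log2 of -0.18. MRPL1 fell by 0.58 (SE 0.06, adjusted p = 1.4e-11 by edgeR) and MRPS10 by 0.29 (SE 0.03, adjusted p = 1.9e-12 by edgeR). SLIRP, the RNA-binding partner of LRPPRC, fell by 0.50 (SE 0.07, adjusted p = 1.1e-07 by edgeR). POLRMT rose by 0.25 (SE 0.06, adjusted p = 2.8e-04 by edgeR).

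At the high dose of the 4 extracts with lower MT-RNR1, few of the nuclear genes were called. With fresh ginger 23 of 158 were called (14.6% against 19.3% of all tested genes), with dried ginger 16 (10.1% against 17%), with Pinellia 20 (12.7% against 18%) and with jujube 18 (11.4% against 17.3%). Without the first vehicle library these counts were 10, 7, 12 and 10. Without a single library of the treated group they fell to 12 (fresh ginger, replicate 3), 8 (dried ginger, replicate 2), 13 (Pinellia, replicate 1) and 11 (jujube, replicate 2), and without the second vehicle library the count for Pinellia was 13. With all libraries, 9 were higher and 14 lower with fresh ginger, and 8 and 8 with dried ginger. With Pinellia 16 were higher and 4 lower, and with jujube 8 and 10. Of all tested genes, 1603 were higher and 1790 lower with fresh ginger, and 1364 and 1617 with dried ginger. The same numbers were 1634 and 1534 with Pinellia, and 1437 and 1598 with jujube. NOA1, a GTPase of ribosome assembly, rose with all 4, by 0.16 with jujube and Pinellia, 0.13 with dried ginger and 0.10 with fresh ginger, with adjusted p of 1.9e-03 or less by edgeR. NOA1 was also called higher with wortmannin (0.16), high-dose Scutellaria (0.18) and high-dose Coptis (0.93), so its rise was not particular to these 4 extracts. POLRMT rose by 0.21 with jujube (adjusted p = 7.5e-03 by edgeR), 0.18 with Pinellia (adjusted p = 0.017 by edgeR), 0.18 with dried ginger (adjusted p = 0.018 by edgeR) and 0.17 with fresh ginger (adjusted p = 0.026 by edgeR). All of these calls share the vehicle libraries. Against the low dose of the same extract POLRMT differed by 0.10 with jujube and Pinellia, 0.03 with dried ginger and 0.02 with fresh ginger, and none of these was called (adjusted p of 0.26 or more by edgeR). NOA1 was called higher than at the low dose with jujube (0.16), Pinellia (0.14) and dried ginger (0.08), and was at 0.04 with fresh ginger (adjusted p = 0.29 by edgeR). Against the vehicle PPARGC1A was called lower with jujube (-0.60), Pinellia (-0.58) and dried ginger (-0.42), and was not called with fresh ginger (-0.33). With library totals the dried ginger call was lost. PPARGC1A was also called lower with high-dose Scutellaria (-0.52) and higher with wortmannin (0.47). Against the low dose of the same extract it was called lower with jujube (-0.70), dried ginger (-0.57) and Pinellia (-0.45).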

How the data were processed

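RNA of SW1783 cells was sequenced as 100 bp read pairs in 60 libraries. Per the submitters' processing notes, FastQC 0.11.9, Trim Galore 0.6.5, STAR 2.7.3a, RSEM 1.3.3 and GRCh38 were used. Neither the annotation release nor the strand setting is stated there. The authors deposited expected counts per Ensembl gene, not scaled for depth, of which 90.5% were whole. They were rounded, which changed no library total by more than 0.00022%. Each column was matched to its library by the description code. Gene lengths, coordinates and sequences came from GENCODE v29 (GRCh38), and symbols from a table of gene names and GENCODE.

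In R 4.3.3 with edgeR 4.0.16, filterByExpr kept 17569 of 37383 genes with any count. TMM factors were 0.80 to 1.04. A single quasi-likelihood fit held 20 group means and 40 residual degrees of freedom. Two-sided p were adjusted by Benjamini-Hochberg over all tested genes of a comparison and called under 0.05. SE of fold changes came from this fit, and SE of ratios from the spread of 3 libraries per group. DESeq2 1.42.0, other scalings, no filter, 2-group fits, the replicate block and leaving out libraries were alternatives. The fit was tested on simulated data.

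The members and gene lists were chosen with earlier results of these data known. Named nuclear genes were 17 single genes and up to 4 called genes with the smallest p per list, and the 5 genes most like each rRNA by Pearson r over group means, of which 1 is not reported here. Whether replicates were separate cultures is not stated, so p-values may measure technical spread. Of 35 nuclear RNAs without A tails 18 were matched, and of 38 histone genes 35. Between replicates the chi-square per gene was 1.62 to 5.93, and no 2 libraries were identical.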

Additional observations from a re-analysis of the deposited data

Results flagged for a closer look

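Of 3 pairs of extracts that share the first number of their library codes, 2 had high doses that lay on opposite sides of their low doses without overlap, and these differences were not tested. Of all tested genes, 30.6% were higher with Scutellaria, 13% lower with Pinellia, 37.4% higher with Coptis and 16.7% lower with jujube without overlap. The share of all genes on opposite sides within a pair was not counted. Fresh and dried ginger, the other pair, lay on the same side, with changes of -0.40 and -0.32 for MT-RNR1 and -0.22 and -0.29 for MT-RNR2. Between Scutellaria and Pinellia, the change from low to high dose was 0.44 against -0.33 for MT-RNR1, a difference of 0.77 on the log2 scale. For MT-RNR2 it was 0.31 against -0.27, a difference of 0.58. For the ratio of rRNA to mRNA it was 0.22 against -0.43, a difference of 0.65. Between Coptis and jujube, the change was 1.52 against -0.49 for MT-RNR1, a difference of 2.01. For MT-RNR2 it was 0.62 against -0.41, a difference of 1.04, and for the ratio of rRNA to mRNA 0.71 against -0.45, a difference of 1.16. Doses differed between the extracts of each pair.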

How the results depend on the processing

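The direction of both rRNAs with Coptis held under every scaling, filter, fit and left-out library that was tried. With library totals, MT-RNR1 at the medium dose was at 4.67 and MT-RNR2 at 2.96, and the high dose at 3.27 and 1.48. With the counts of nuclear genes as library size the high dose was at 3.29 and 1.5. Fitted on its own 2 groups, MT-RNR1 at the high dose was at 3.55. High against low dose of Coptis was 1.21 and 0.32 with library totals and 1.22 and 0.32 with nuclear counts, for MT-RNR1 and MT-RNR2. The rRNA to mRNA ratio at the medium dose of Coptis was 3.96 without division by length and 3.97 with the mean of log2 over the mRNAs, and -0.45 for high-dose Pinellia with that mean. Alternatives for Coptis at the medium and low dose and for high against low doses were added after the values were seen.

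Counts of called nuclear genes moved more. In fits of the 2 groups alone, 12 genes were called for high-dose Pinellia, 6 for high against low dose of dried ginger and 6 for that of Pinellia. Without the filter on low counts, 2 were called for low-dose Coptis and 6 for high against low dose of dried ginger. The cause was not tested. Leaving out 1 library gave 10 to 22 calls for high-dose fresh ginger, 7 to 15 for dried ginger, 12 to 21 for Pinellia, 10 to 16 for jujube and 0 to 1 for low-dose Coptis. For high against low dose it gave 27 to 43 for fresh ginger (49 with all; lowest without low-dose replicate 1, and 29 without high-dose replicate 1), 4 to 10 for dried ginger (10 with all; 4 and 5 without low-dose replicates 2 and 1, 6 without high-dose replicate 1) and 9 to 14 for jujube (20 with all; 13 or fewer without each library except high-dose replicate 2). Of 315 named calls 98 were lost under at least 1 alternative and 0 changed sign, which leaves aside library totals.

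Replicate numbers are shared between groups, and the libraries were not treated as paired. In 0 of 25 comparisons did all pairs correlate above 0.1. The mean correlation was 0.032 for the same number and -0.016 for others. The own number gave the best correlation for 36 of 60 libraries, more than an even split over 3 numbers would give. This is a hint of a weak shared effect, from the data only, and was not tested. With the replicate block 124 nuclear genes were called for high-dose Coptis, 49 for the medium dose and 0 for the low dose, as without it. The values of both rRNAs in the report rest on 3 libraries per group, and the deposited counts hold no measure of RNA per cell.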
